A study of Homo sapiens with 6 samples.

Results

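The 9 genes described here encode proteins that start blood coagulation at the cell surface, turn plasminogen into plasmin, or sense the proteases that result. They are tissue factor (F3) and its inhibitor TFPI, the thrombin receptor PAR1 (F2R) and the trypsin-type protease receptor PAR2 (F2RL1), the plasminogen activators PLAU and PLAT, the urokinase receptor PLAUR, and the serpins SERPINE2 and SERPINB5. They were chosen by gene symbol for their function, and with the TPM values of these libraries already known, so the siVCPIP1 against siControl values of the 9 genes are a description and carry no test. Levels are TPM, a gene's share of the library's transcripts after division by transcript length. The table lists 15832 gene symbols, all 9 genes among them, and 10966 symbols, again with all 9, averaged 1 TPM or more and were kept for testing. The data are 6 RNA sequencing libraries of AsPC-1, a human pancreatic adenocarcinoma line, taken 48 h after transfection with control siRNA (siControl, 3 libraries) or with siRNA directed at VCPIP1 (siVCPIP1, 3 libraries). VCPIP1 encodes a deubiquitinase, and the series title ties it to Hippo and YAP signalling in pancreatic cancer. All libraries come from this single line, the labels name no second siRNA, and they do not say whether replicates were separate cultures, so the p-values below cover the spread between libraries, which may be technical.

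Tissue factor is the membrane receptor that, with factor VIIa, triggers coagulation, and TFPI shuts that complex off. Urokinase (PLAU), held on the cell by its receptor PLAUR, and tissue plasminogen activator (PLAT) both cut plasminogen to plasmin, which dissolves fibrin and degrades matrix, and serpins such as SERPINE2 block them. PAR1 and PAR2 are G protein-coupled receptors switched on when a protease clips their extracellular tail, and pancreatic carcinomas are known for tissue factor expression and for venous thrombosis.

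Sequence is shown for the promoters of F2RL1 and F3, the genes whose TPM was the smallest share of the siControl level in the siVCPIP1 libraries. The windows lie within the 250 bases before the RefSeq transcription start (RefSeq, GRCh38.p14) and are cut where a GENCODE 29 exon of the gene begins. F3 is chr1:94541801-94542009 on the minus strand, and F2RL1 is chr5:76818780-76818932 on the plus strand. Capitals mark matches, on either strand, to the AP-1 motif (TGANTCA) or to the TEAD motif (GGAATG).
F3: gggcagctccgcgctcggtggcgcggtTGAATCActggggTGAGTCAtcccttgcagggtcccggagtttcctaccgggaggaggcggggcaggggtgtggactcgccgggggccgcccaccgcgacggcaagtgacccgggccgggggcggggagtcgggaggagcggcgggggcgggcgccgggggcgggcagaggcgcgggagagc
F2RL1: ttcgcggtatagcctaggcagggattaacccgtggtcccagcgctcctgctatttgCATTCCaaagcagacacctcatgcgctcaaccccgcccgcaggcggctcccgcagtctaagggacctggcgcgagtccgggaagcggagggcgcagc
The F3 window held 2 AP-1 matches, which began 223 and 210 bases before the start, and the F2RL1 window held 1 TEAD match, which began 194 bases before it. For the other genes the motifs were searched in the whole 250 bases before the start, exons included. With F3 and F2RL1, this covered 7 of the 9 genes (9 RefSeq starts). F2R had no entry in the promoter set used, and PLAT was left out of the search. Over these uncut stretches an AP-1 match was present for F3, SERPINB5 and PLAUR (3 of 9, against 6.6% of all 35116 RefSeq stretches of that length), and a TEAD match for F2RL1 (1 of 9, against 11.9%). The SERPINB5 and PLAUR matches lie in the part that GENCODE 29 exons cover. A match is a description of the letters, not a binding site.

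The libraries of the 2 groups differed over the whole table, not in the 9 genes alone. The median TPM over all symbols was 6.18 to 7.44 in siControl and 1.24 to 2.26 in siVCPIP1, and the median tested gene in siVCPIP1 replicates 1, 2 and 3 stood at 32.6%, 31.9% and 52.2% of its siControl mean. VCPIP1, the targeted gene, read 2.93, 3.06 and 2.24 TPM in siControl and 0.12, 0.11 and 0.27 TPM in siVCPIP1. Of 9 epithelial and ductal markers, which summed to 14076.92 to 16196.74 TPM in siControl and 21095.73 to 23836.05 TPM in siVCPIP1, limma called 4 higher and 5 lower. The keratins KRT7, KRT8, KRT18 and KRT19 were higher, KRT19 from 4229 ± 391 to 8365 ± 799.9 TPM (SD, n = 3 each). EPCAM, CDH1, CLDN4, MUC1 and CEACAM6 were lower. These are the calls of TPM as deposited, and some depended on the processing. After median-of-ratios scaling CLDN4 was higher (0.61) and MUC1 was not called (-0.08). After GC and length correction CEACAM6 was higher (0.55) and CLDN4 was not called (-0.16). KRT8 and KRT18 were not called after quantile normalization (-0.12 and 0.16). EPCAM and CDH1 read 157.30 to 196.23 and 27.50 to 31.71 TPM in siControl and 2.99 to 11.69 and 0.28 to 1.33 TPM in siVCPIP1. Of the marker lists for other cell types, the endothelial list (4 of 7 genes in the table) summed to 2.19 to 2.37 TPM in siControl and 0.79 to 1.29 TPM in siVCPIP1, and the platelet list (5 of 7) to 1.56 to 1.72 and 0.60 to 0.88 TPM. The fibroblast list (5 of 6) summed to 45.31 to 68.98 and 1.5 to 4.51 TPM, with LUM at 44.05 to 67.41 and 1.08 to 3.71 TPM and COL1A1 at or below 1.05 TPM. The leukocyte list (3 of 6) summed to 144.41 to 150.09 and 121.87 to 159.10 TPM, nearly all of it CD68, with PTPRC at or below 0.66 TPM. No marker in the table was listed at 0 in all 6 libraries, and the part of these markers in the results was not tested.

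All 9 genes were lower in every siVCPIP1 library than in any siControl library in TPM as deposited. The median gene of the 9 stood at 10.6% of its siControl mean, against 39.1% for the median of all tested genes. As the values behind the choice of genes are the same ones, nothing is read from the count: 9 of 9 passed limma's threshold (adjusted p under 0.05) on the lower side, as 66.0% of all tested genes did, and 9 of 9 had no overlap between the groups with siVCPIP1 lower, as 67.9% of all tested genes did. Within the siVCPIP1 group, replicate 3 was the highest library for all 9 genes. It was also the highest for the median tested gene, which kept 52.2% there against 32.6% and 31.9% in replicates 1 and 2. In bulk RNA, fewer cells that express a gene and less RNA per cell cannot be told apart.

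**Figure D1:**
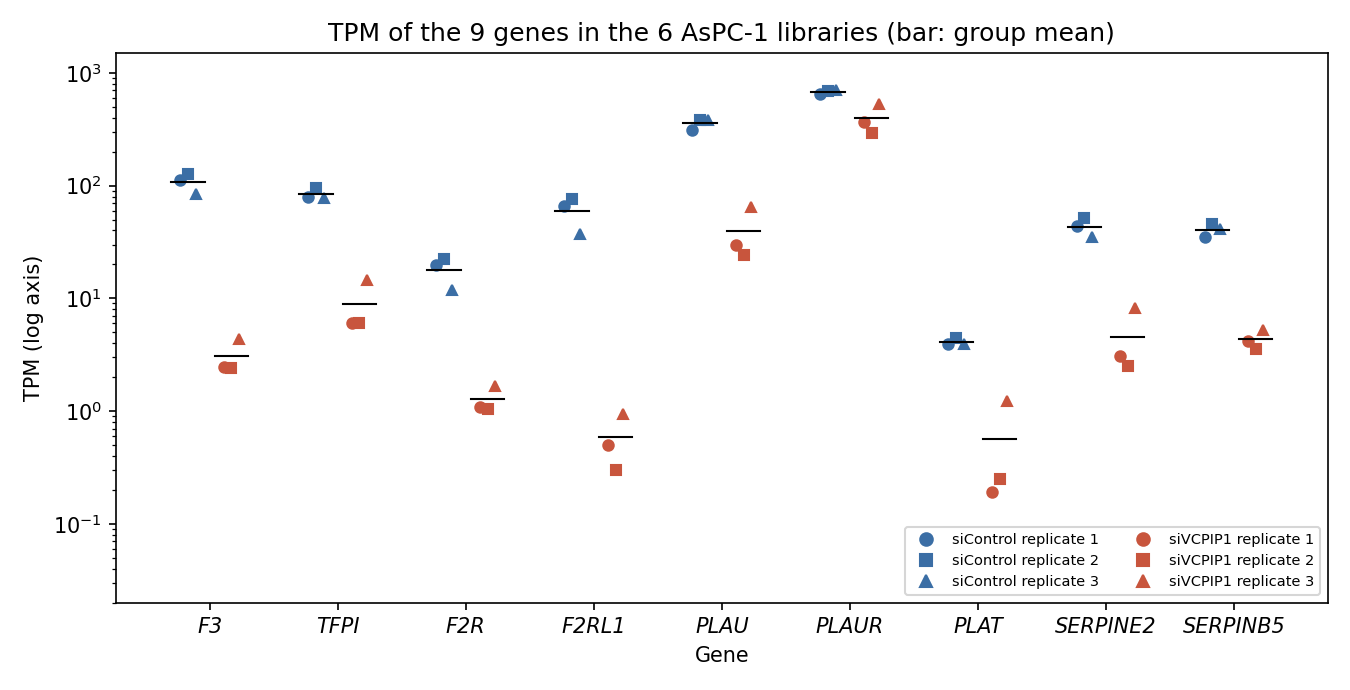
TPM (log axis) of each of the 9 genes in each of the 6 libraries, with siControl in blue, siVCPIP1 in red, 1 symbol per replicate and a bar at the group mean. No siVCPIP1 point reaches a siControl point of the same gene, and PLAUR has the smallest gap (526.28 against 648.61 TPM), a direction that turns for PLAUR under median-of-ratios scaling, which aligns the libraries at their typical gene.

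Tissue factor, the initiator of coagulation, was among the more abundant of these transcripts in control cells. F3 read 111.27, 125.67 and 84.31 TPM in siControl replicates 1 to 3 and 2.47, 2.39 and 4.32 TPM in siVCPIP1 replicates 1 to 3. The lowest control library was thus far above the highest siVCPIP1 library, and replicate 3 was the lowest of its group in siControl and the highest in siVCPIP1. The means were 107 ± 21.0 and 3.06 ± 1.09 TPM (SD, n = 3 each), a ratio of 35.0, and the log2 difference was -4.75 (SE 0.24). F3 went from the 91.4th to the 58.6th percentile of all symbols within a library, a rank that no scaling of whole libraries can move. Correction for transcript GC and length, given below, works gene by gene and can move such a percentile. Only 0.109% of tested genes had a more negative log2 difference. As 1 TPM was added before the log, which shrinks the falls of less abundant genes, this rank also depends on level. CDH1, for example, kept 2.34% of its control mean, less than the 2.86% of F3, but differed by -4.21. In GENCODE 29 (GRCh38) F3 occupies chromosome 1, 94529225 to 94541800, minus strand, and its 6-exon transcript of 2287 nt has 43.7% GC.

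TFPI, the Kunitz-type inhibitor of the tissue factor and factor VIIa complex, was present at a level close to that of F3 in control cells. TFPI read 78.64, 95.90 and 77.00 TPM in siControl and 6.01, 6.08 and 14.47 TPM in siVCPIP1. Replicates 1 and 2 of siVCPIP1 were nearly equal, and replicate 3 was more than their sum. The means were 83.8 ± 10.5 and 8.85 ± 4.86 TPM (SD, n = 3 each) and the log2 difference was -3.20 (SE 0.30). Its transcript (chromosome 2, 187464230 to 187565760, minus strand, 8 exons, 3885 nt) has the lowest GC content of the 9, 35.1%. The F3 to TFPI ratio within a library was 1.41, 1.31 and 1.09 in siControl and 0.411, 0.393 and 0.299 in siVCPIP1. F3 was therefore the more abundant of the pair in each control library and the less abundant in each siVCPIP1 library.

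Which of the protease-activated receptors was the more abundant differed between the groups. F2RL1 (PAR2), which trypsin-type proteases and the tissue factor complex activate, read 66.14, 76.55 and 36.92 TPM in siControl and 0.50, 0.30 and 0.95 TPM in siVCPIP1. All 3 siVCPIP1 libraries were below 1 TPM, and siControl replicate 3, at 61.7% of the control mean, was the lowest of its group, as it was for F2R. The means were 59.9 ± 20.5 and 0.583 ± 0.333 TPM (SD, n = 3 each), a ratio of 103, and the log2 difference was -5.22 (SE 0.30). Because a pseudocount of 1 TPM was added before the log, that value understates the ratio of the deposited TPM. With a pseudocount of 0.1 the log2 difference was -6.50. Scaling of the libraries and GC and length correction, given below, gave smaller differences than -5.22. With the pseudocount of 1 TPM, only 0.0274% of tested genes had a more negative value.

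F2R (PAR1), a thrombin receptor of platelets and many other cells, read 19.64, 22.38 and 11.76 TPM in siControl and 1.09, 1.05 and 1.68 TPM in siVCPIP1. The groups were again apart, at lower levels than for F2RL1 in control cells and at higher levels in siVCPIP1 cells. The means were 17.9 ± 5.51 and 1.27 ± 0.353 TPM (SD, n = 3 each) and the log2 difference was -3.02 (SE 0.26). The F2RL1 to F2R ratio was 3.37, 3.42 and 3.14 in siControl and 0.459, 0.286 and 0.565 in siVCPIP1. PAR2 transcripts outnumbered PAR1 transcripts in each control library and were outnumbered in each siVCPIP1 library. The receptor genes are neighbours on chromosome 5 (F2R 76716043 to 76735781, F2RL1 76818933 to 76835315, both on the plus strand), each with 2 exons, and their transcripts are alike in GC content (44.4% and 44.5%) at 3821 and 2914 nt. The other receptors of the family were barely detected, with F2RL2 at 0.09 to 0.21 TPM and F2RL3 at 0.04 to 0.41 TPM over the 6 libraries.

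**Figure D2:**
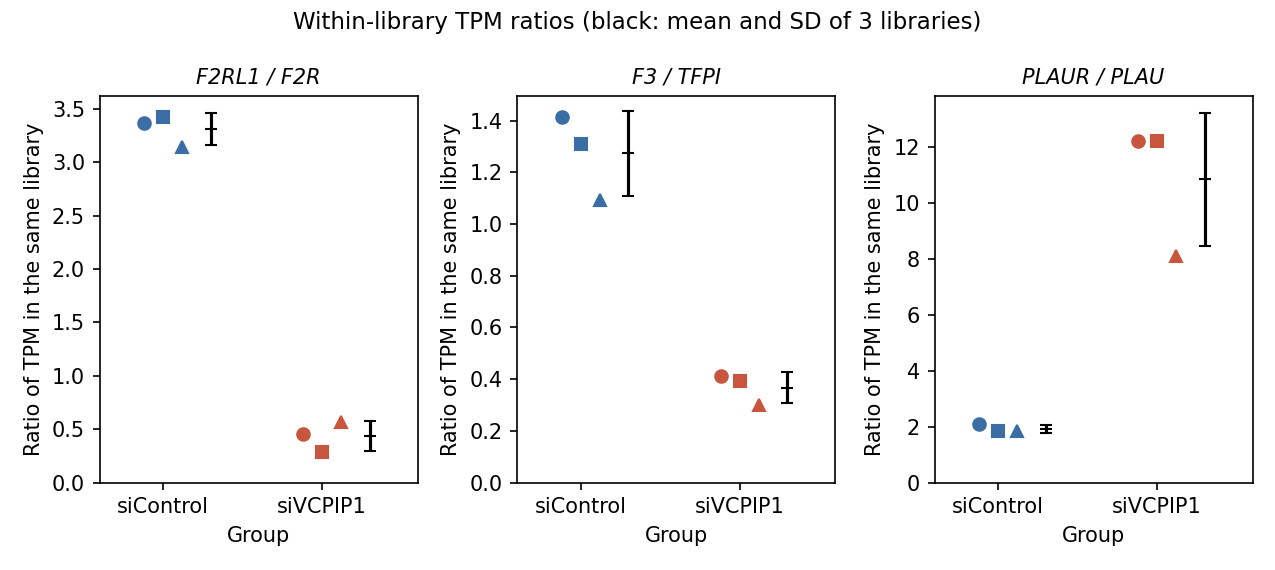
Ratio of the TPM of a gene pair within the same library (linear axis from 0) for 3 pairs, with siControl in blue, siVCPIP1 in red, 1 symbol per replicate and the mean with SD in black. The F2RL1 to F2R ratio is 3.31 ± 0.149 in siControl and 0.437 ± 0.141 in siVCPIP1, and the PLAUR to PLAU ratio is 1.92 ± 0.145 and 10.8 ± 2.39 (n = 3 each).

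Urokinase and its receptor were the most abundant of the 9 transcripts and differed in how much of them was left. PLAU, the secreted serine protease, read 310.00, 378.36 and 379.92 TPM in siControl and 29.95, 23.98 and 65.04 TPM in siVCPIP1. Replicate 3 of siVCPIP1 was more than double replicates 1 and 2 and still far under every control library. The means were 356 ± 39.9 and 39.7 ± 22.2 TPM (SD, n = 3 each) and the log2 difference was -3.26 (SE 0.32). PLAUR, the GPI-anchored receptor, read 648.61, 697.17 and 698.59 TPM in siControl and 366.34, 292.98 and 526.28 TPM in siVCPIP1. The groups did not overlap, although siVCPIP1 replicate 3 kept 77.2% of the control mean, and the means were 681 ± 28.5 and 395 ± 119 TPM (SD, n = 3 each). The PLAUR log2 difference was -0.83 (SE 0.20), lower than control with TPM as deposited, and it was 0.55, higher than control, after median-of-ratios scaling. PLAUR kept 58.0% of its control mean, more than the median tested gene, and stayed at the 97.7th percentile of a library against the 98.6th. The other 8 genes together supplied about as much TPM as PLAUR in siControl, where PLAUR was 46.6% to 51.1% of the sum of the 9, and in siVCPIP1 PLAUR was 83.9% to 88.5% of it. The PLAUR to PLAU ratio was 2.09, 1.84 and 1.84 in siControl and 12.2, 12.2 and 8.09 in siVCPIP1.

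PLAT, the activator that works mainly on fibrin, was the least abundant member. PLAT read 3.96, 4.43 and 3.95 TPM in siControl and 0.19, 0.25 and 1.24 TPM in siVCPIP1. The group means of 4.11 ± 0.274 and 0.560 ± 0.590 TPM (SD, n = 3 each) differed by -1.77 on the log2 scale (SE 0.24), and by -3.03 with a pseudocount of 0.1. Replicate 3 carried most of the PLAT that remained: it kept 30.1% of the control mean, and replicates 1 and 2 kept 4.62% and 6.08%. PLAU exceeded PLAT 78.3-fold, 85.4-fold and 96.2-fold in siControl and 158-fold, 95.9-fold and 52.5-fold in siVCPIP1, ranges that overlap.

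Both serpins were lower by similar factors in TPM as deposited, although they do different things. After GC and length correction, given below, SERPINB5 stood nearer to its control level than SERPINE2 did. SERPINE2 (protease nexin-1), which inhibits thrombin, urokinase and other trypsin-like proteases, read 43.37, 51.38 and 35.08 TPM in siControl and 3.09, 2.53 and 8.13 TPM in siVCPIP1, a log2 difference of -3.10 (SE 0.35). SERPINB5 (maspin), which belongs to the serpin fold but is not known as a classical protease inhibitor, read 34.94, 45.24 and 40.80 TPM in siControl and 4.22, 3.58 and 5.27 TPM in siVCPIP1, a log2 difference of -2.95 (SE 0.20). SERPINB5 spread least among the siVCPIP1 libraries, with a coefficient of variation of 19.6%, while that of SERPINE2 was 67.3%. SERPINE2 kept 7.14% and 5.85% of its control mean in siVCPIP1 replicates 1 and 2 and 18.8% in replicate 3. The SERPINE2 to PLAU ratio overlapped between the groups (0.0923 to 0.140 in siControl, 0.103 to 0.125 in siVCPIP1), and so did the SERPINB5 to PLAU ratio (0.107 to 0.12 and 0.0810 to 0.149).

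In control cells the order by mean TPM, which is per length, was PLAUR, PLAU, F3, TFPI, F2RL1, SERPINE2, SERPINB5, F2R and PLAT. The libraries of F3 and TFPI, of F2RL1 and SERPINE2, and of SERPINE2 and SERPINB5 overlapped, so the levels of these neighbours were not apart beyond their spread over libraries, although F3 exceeded TFPI and F2RL1 exceeded SERPINE2 within each control library. In siVCPIP1 cells the order was PLAUR, PLAU, TFPI, SERPINE2, SERPINB5, F3, F2R, F2RL1 and PLAT. There the libraries of TFPI and SERPINE2, of SERPINE2 and SERPINB5, of SERPINB5 and F3, and of F2RL1 and PLAT overlapped. F3 moved from the third place to the sixth, and F2RL1 from the fifth to the eighth. The share of the control mean that was left ran from 0.974% for F2RL1, 2.86% for F3 and 7.10% for F2R through 10.6% for TFPI and SERPINE2, 10.8% for SERPINB5, 11.1% for PLAU and 13.6% for PLAT to 58.0% for PLAUR.

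**Figure D3:**
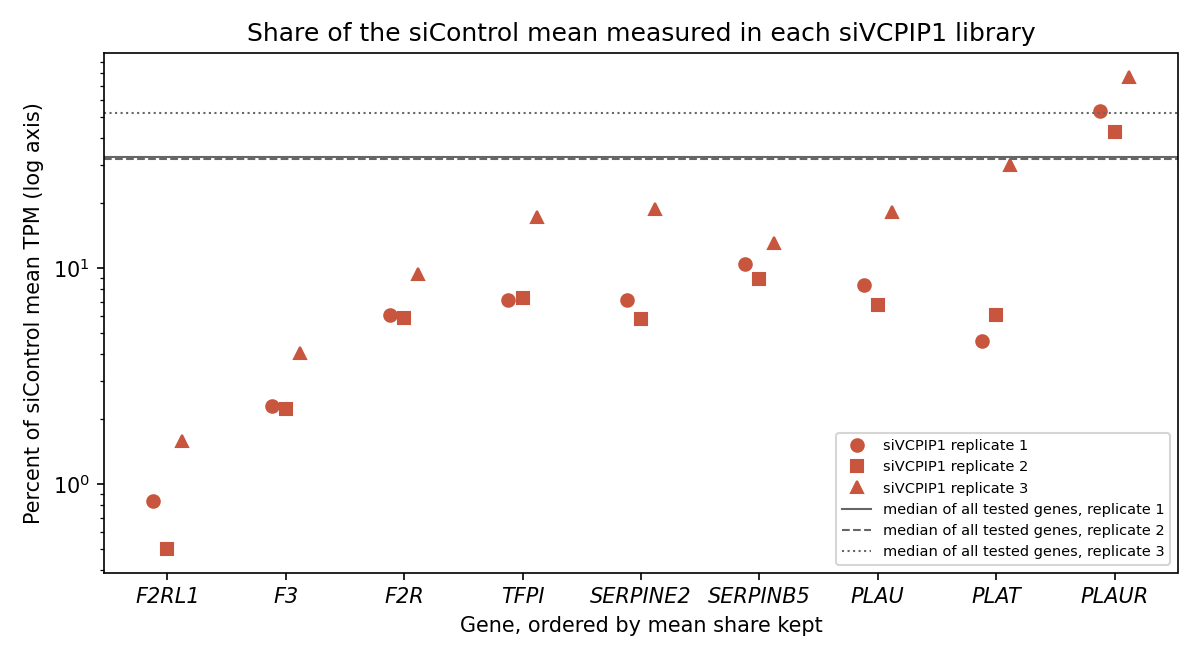
TPM in each siVCPIP1 library as a percent of the siControl mean (log axis), by gene in order of the mean share, with lines for the median of all tested genes in the same library. All points except those of PLAUR lie below the line of their own library, and replicate 3 (triangles) is the highest point of each gene. Under median-of-ratios scaling PLAUR would lie above its control level.

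The difference in a gene's TPM was graded by the GC content of its transcript over the whole table, so each of the 9 genes is given beside its GC decile. In the lowest decile the median log2 difference of all tested genes was -2.24 and in the highest it was 0.48. F3, in the third decile, differed by -4.75 where its decile had a median of -2.05, and F2RL1, in the fourth, by -5.22 where the median was -1.79. F2R and SERPINE2 share the fourth decile, with -3.02 and -3.10. PLAU, in the sixth decile at 52.6% GC, differed by -3.26 where the median was -0.93, and PLAT, in the seventh at 54.7%, by -1.77 where it was -0.42. TFPI (-3.20) and SERPINB5 (-2.95), in the first and second deciles, stood closer to their medians of -2.24 and -2.18. PLAUR, in the eighth decile at 57.3% GC, differed by -0.83 where the median was -0.12, although it was higher than control after median-of-ratios scaling. The part of GC content in these values was not tested.

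The values were also taken under other ways of processing. Median-of-ratios scaling and quantile normalization, which align the libraries' centres, moved the median over all tested genes from -1.12 to -0.02 and -0.01, and the calls over all genes from 7241 lower and 1646 higher to 4677 and 4641 and to 4454 and 4512. F3 then differed by -3.53 and -3.79, F2RL1 by -4.29 and -4.38, F2R by -1.97 and -1.52, PLAU by -1.90 and -2.91 and TFPI by -1.91 and -2.31. PLAT differed by -1.06 and -0.70, SERPINE2 by -1.88 and -1.92 and SERPINB5 by -1.70 and -1.75, while PLAUR was at 0.55 and -0.83. After each library's trend on transcript GC and length was removed, F2RL1 was at -3.14, F3 at -2.53, PLAU at -2.31, SERPINE2 at -1.22, PLAT at -1.06, F2R at -1.02, TFPI at -0.92, PLAUR at -0.84 and SERPINB5 at -0.62, where the median of all genes was 0.07. With that correction and a pseudocount of 0.1 TPM, TFPI was at -0.03 and SERPINB5 at -0.25.

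**Figure D4:**
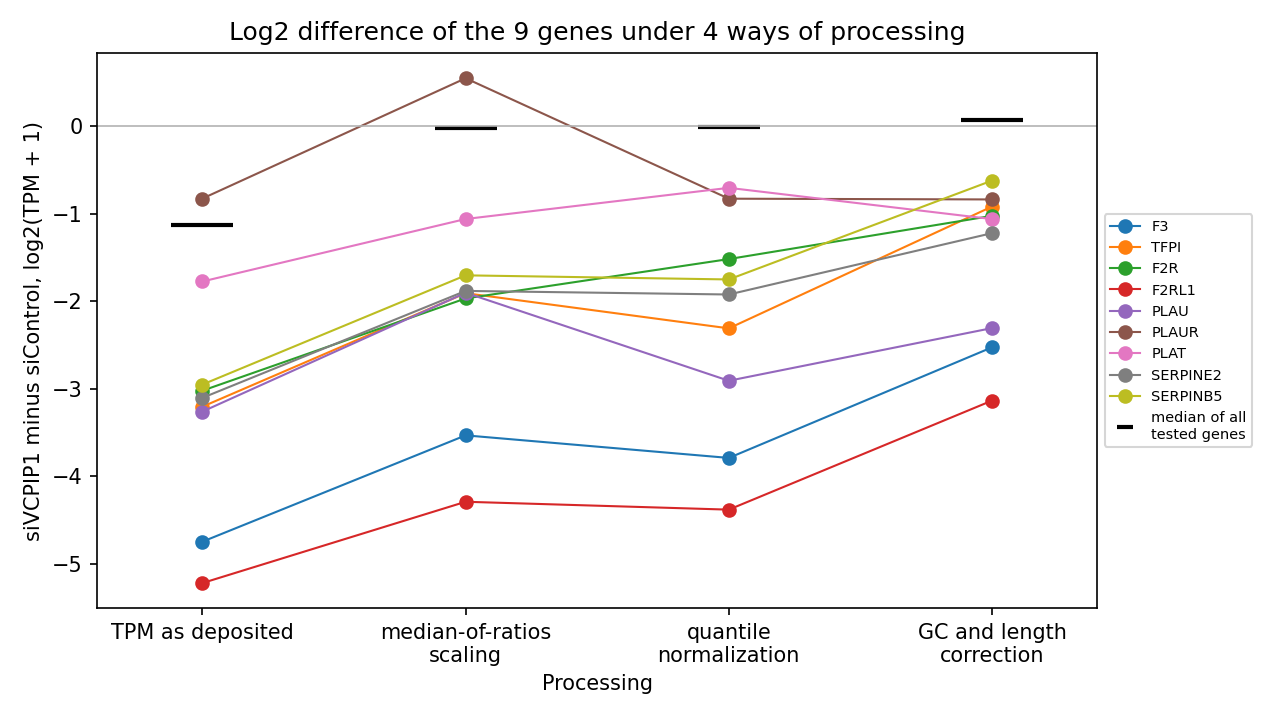
Log2 difference (siVCPIP1 minus siControl, log2(TPM + 1)) of the 9 genes with TPM as deposited and under 3 other ways of processing, with a black bar at the median of all tested genes. F2RL1 and F3 are the lowest points under each of the 4, and PLAUR alone passes above 0, at 0.55 under median-of-ratios scaling.

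By nearness of log2(TPM + 1) over the 6 libraries, the tested genes most like F3 were KCNK1 (Euclidean distance 0.51, 92.1 ± 19.7 and 2.82 ± 1.54 TPM in siControl and siVCPIP1, SD, n = 3 each), MYOF (0.76), TOP1 (0.86) and HNRNPR (0.90). Those most like PLAUR were TALDO1 (0.38, 612 ± 32.2 and 381 ± 103 TPM), EIF1 (0.47), ANPEP (0.47) and CHCHD2 (0.51). With 6 libraries in 2 groups this measure takes in little beyond the 2 group levels.

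The wider pathway was read from 4 lists of genes outside the 9. The lists too were chosen with earlier results of these data known, so their counts and adjusted p-values are not independent support. These genes were tested with limma and Benjamini-Hochberg adjustment over all 10966 genes, of which 66.0% were lower and 15.0% higher, with a median log2 difference of -1.12. Fell and rose are used below for genes past an adjusted p of 0.05.

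Among genes of coagulation and its surface anticoagulants, LMAN1, THBD and MCFD2 fell most and F10, F12 and VKORC1 rose. Of 28 listed genes 22 were in the table and 15 were tested, of which 10 fell, 3 rose and 2 did neither, a share of falls near the 66.0% of all tested genes. After median-of-ratios scaling 7 were lower and 7 higher. The median log2 difference was -1.20. The cargo receptor pair that carries factors V and VIII out of the ER fell, LMAN1 from 26.2 ± 4.68 to 0.923 ± 0.699 TPM (SD, n = 3 each, log2 difference -3.86, adjusted p = 2.0e-05, limma) and MCFD2 from 49.6 ± 11.5 to 3.36 ± 1.67 TPM. Thrombomodulin (THBD), which turns thrombin to protein C activation, fell from 34.76, 43.53 and 30.23 TPM to 1.31, 1.35 and 3.08 TPM (log2 difference -3.71, adjusted p = 2.0e-05, limma). The phosphatidylserine-binding annexin ANXA5 fell from 481 ± 36.9 to 57.3 ± 37.6 TPM. The protein C receptor PROCR fell from 337 ± 40.5 to 94.3 ± 39.3 TPM and the cofactor protein S (PROS1) from 22.9 ± 4.10 to 1.93 ± 1.01 TPM. Those that rose were F10 (25.9 ± 2.62 to 43.0 ± 4.26 TPM, adjusted p = 0.0026, limma), F12 (21.0 ± 4.82 to 34.4 ± 4.84 TPM, adjusted p = 0.011) and the vitamin K reductase VKORC1 (244 ± 31.2 to 306 ± 7.44 TPM, adjusted p = 0.040). F10 and F12 encode the zymogens factor X and factor XII. PROC (4.92 and 7.27 TPM) and the carboxylase GGCX (37.7 and 30.7 TPM) were not called. F7, whose product is the partner of tissue factor, was at 0.00 to 0.09 TPM and F2 (prothrombin) at 0.00 to 0.10 TPM. With transcript GC and length corrected for, F12 was no longer called (0.24, limma, adjusted p = 0.13) and VKORC1 was at -0.15 (adjusted p = 0.18). The VKORC1 call was also lost without siControl replicate 2 or 3 or siVCPIP1 replicate 1 or 2 (limma, adjusted p from 0.088 to 0.14).

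Among plasminogen receptors, binding partners and regulators, ITGB1, PLGRKT and HMGB1 fell most and ITGA5 rose. Of 19 listed genes 16 were in the table and 14 were tested, of which 9 fell, 1 rose and 4 did neither, and the list's median was -1.48. This share of falls is also near the 66.0% of all tested genes. The integrin chain ITGB1 fell from 355 ± 34.6 to 9.12 ± 6.89 TPM (-5.34) and ITGAV from 11.95 ± 2.17 to 0.687 ± 0.462 TPM (-2.96). The plasminogen receptor PLGRKT fell from 12.8 ± 0.756 to 0.390 ± 0.381 TPM (-3.34), and HMGB1, a chromatin protein that binds plasminogen outside the cell, from 271 ± 23.6 to 29.7 ± 19.5 TPM (-3.32). S100A10 and ANXA2, which form a tetramer that binds plasminogen, fell as well, S100A10 from 1771 ± 170.1 to 338 ± 137 TPM and ANXA2 from 2824 ± 334 to 1094 ± 411 TPM. The integrin ITGA5, which pairs with ITGB1, rose from 59.0 ± 3.74 to 73.8 ± 0.983 TPM (0.32, adjusted p = 0.042, limma). ENO1, ITGA3, LRPAP1 and SERPINF2 were not called with TPM as deposited, but were called higher after median-of-ratios scaling. HMGB1 and ANXA2 have pseudogene copies, and the counting is not described, so their values are less certain. HMGB1 was at -1.14 after GC and length correction, and its call was lost with that correction and a pseudocount of 0.1 (-0.23, adjusted p = 0.27, limma). ANXA2 was at 0.40 after GC and length correction and -0.05 after median-of-ratios scaling (not called, adjusted p = 0.84), and the ITGA5 call was lost without siControl replicate 2 or 3 or siVCPIP1 replicate 1 or 2 (adjusted p from 0.10 to 0.14).

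Among genes around the protease-activated receptors, GNA13, GNAI3, ARHGEF12 and GNAQ fell most, and the protease gene PRSS3 rose most. Of 24 listed genes 22 were in the table and 15 were tested, of which 9 fell, 3 rose and 3 did neither, around a median of -0.76, where 66.0% of all tested genes fell. After median-of-ratios scaling 4 were lower and 10 higher. The G protein subunits GNA13, GNAI3 and GNAQ fell, in that order from 29.9 ± 7.44 to 1.79 ± 0.917, 11.8 ± 1.31 to 1.24 ± 0.833 and 8.05 ± 0.841 to 0.853 ± 0.456 TPM. The guanine nucleotide exchange factor ARHGEF12, which acts downstream of GNA13, fell from 13.4 ± 3.04 to 1.43 ± 0.534 TPM (-2.57, adjusted p = 2.3e-05, limma), whereas its relative ARHGEF1 rose from 100.1 ± 9.88 to 135 ± 7.26 TPM (0.43, adjusted p = 0.013). PRSS3 (mesotrypsin) rose from 180.74, 151.48 and 149.69 TPM to 394.31, 408.63 and 284.94 TPM (1.16, SE 0.17, adjusted p = 0.00020, limma). PRSS3 has close trypsinogen relatives, so reads may be shared, and PRSS1 was at 0.09 to 0.55 TPM. The membrane-anchored protease PRSS8 (prostasin) rose from 5.77 ± 1.36 to 8.94 ± 0.381 TPM (0.57, adjusted p = 0.028), and KLK6, GNAI2 and ARRB2 were not called. After GC and length correction the GNAQ and PRSS8 calls were lost (-0.21 and 0.17, adjusted p = 0.086 and 0.21, limma). The PRSS8 call was also lost without siControl replicate 2 or 3 or siVCPIP1 replicate 1 or 2 (adjusted p from 0.061 to 0.13), and that of ARHGEF1 without siVCPIP1 replicate 1 (adjusted p = 0.072).

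Among other serpin and Kunitz-type inhibitor genes, SERPINB9, SERPINB7, SPINT2 and SERPINB1 fell most on the log2(TPM + 1) scale and SERPINB6 rose. Of 16 listed genes 13 were in the table and 12 were tested, of which 7 fell, 1 rose and 4 did neither, for a median of -0.67, again beside 66.0% of all tested genes that fell. On that scale the 4 largest falls were in the granzyme B inhibitor SERPINB9 (13.5 ± 1.36 to 2.09 ± 0.978 TPM, -2.27), SERPINB7 (3.66 ± 0.632 to 0.167 ± 0.167 TPM), the hepsin and matriptase inhibitor SPINT2 (497 ± 44.1 to 143 ± 79.8 TPM, -1.92) and the neutrophil elastase inhibitor SERPINB1 (169 ± 15.0 to 53.4 ± 23.9 TPM, -1.72; SD, n = 3 each). By share of the control mean left, SERPINI1 (neuroserpin, an inhibitor of tissue plasminogen activator) was the lowest tested gene of the list. It read 2.48, 2.82 and 1.51 TPM in siControl and 0.04, 0.00 and 0.04 TPM in siVCPIP1. After GC and length correction it was higher (0.79, adjusted p = 0.013, limma). With a pseudocount of 0.1 as well it was lower (-1.20, adjusted p = 0.012, limma), so its direction after correction depended on the pseudocount. SERPINB6 rose from 263 ± 33.3 to 356 ± 41.0 TPM (0.44, adjusted p = 0.019, limma). The antitrypsin SERPINA1, SERPINA3, the collagen chaperone SERPINH1 and SPINT1 were not called. After GC and length correction SERPINB7 and SERPINB1 were at 0.43 and 0.35 and SERPINB9 at -0.20 (adjusted p = 0.096, limma). With that correction and a pseudocount of 0.1, SERPINB7 was lower (-0.95, adjusted p = 0.0021, limma) and SERPINB1 higher (0.78, adjusted p = 0.00037). After median-of-ratios scaling SERPINB1 was at -0.36 (adjusted p = 0.066). The SERPINB6 call was lost without siControl replicate 1 or 2 or siVCPIP1 replicate 1 or 2 (adjusted p from 0.052 to 0.084).

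**Figure D5:**
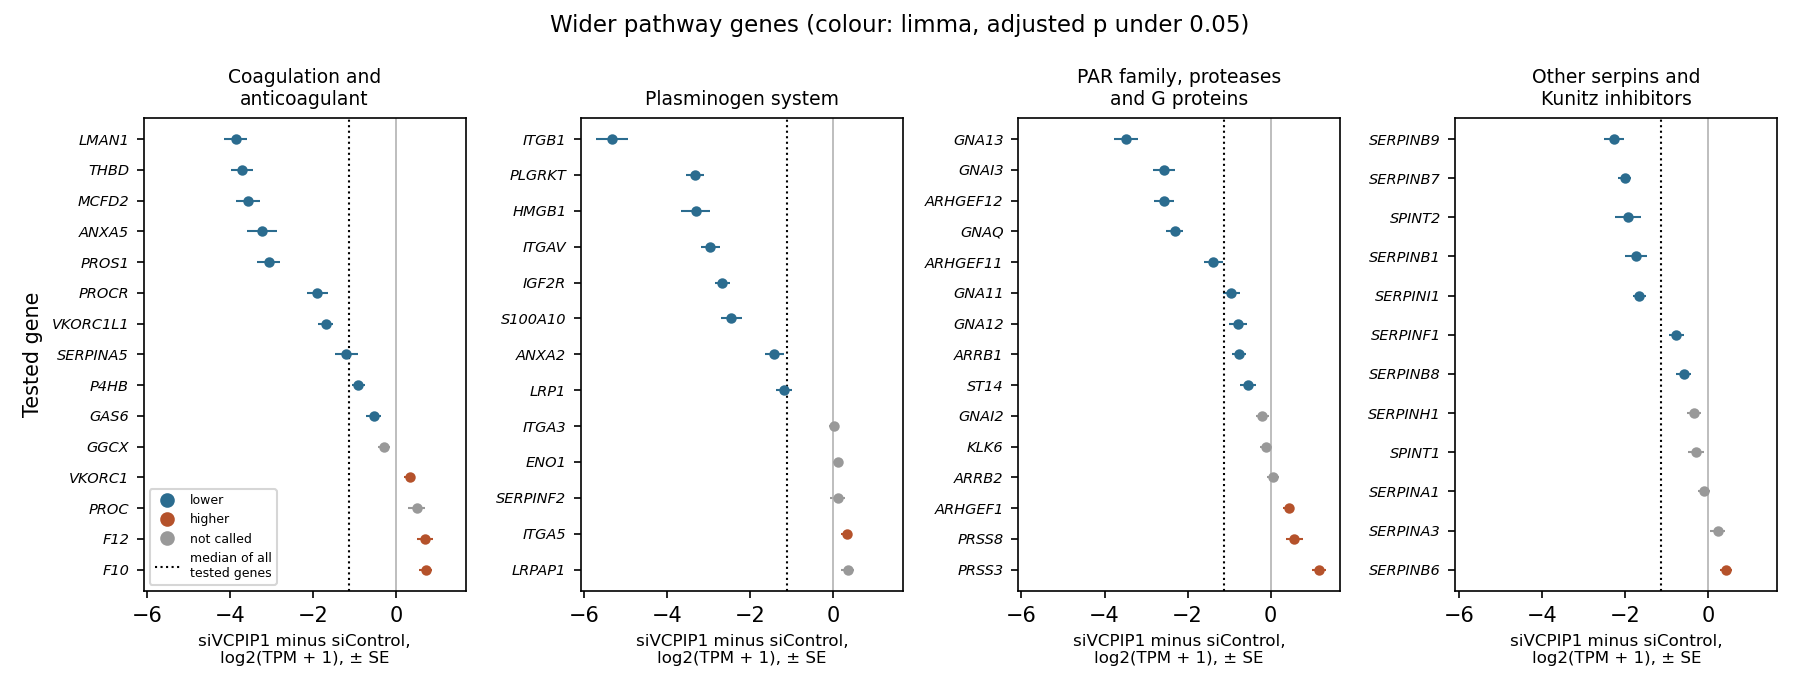
Log2 difference (siVCPIP1 minus siControl, log2(TPM + 1)) with its SE for 55 of the 56 tested genes of the 4 lists, coloured by limma call, with a dotted line at the median of all tested genes (-1.12). Falls reach -5.34 (ITGB1), and PRSS3, at 1.16, is the highest point. The calls are those of TPM as deposited, and under median-of-ratios scaling more genes were higher than lower in the PAR list (10 and 4) and the inhibitor list (7 and 4).

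For 3 of the 9 genes, the exons used here overlap exons of a gene on the other strand. These are PLAU with C10orf55 (405 nt), TFPI with AC007319.1 (118 nt) and F2R with AC025188.1 (39 nt). The strand setting is not given in the sources used here, so reads in these stretches cannot be told apart.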

How the data were processed

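The 6 libraries are columns of a table of TPM by gene symbol that the authors deposited with 2 decimals. The genome build was GRCh38.p13, per the submitters' processing notes. Aligner, counting tool, annotation and strand setting were not given in the sources used here. Columns were matched to samples by name. TPM keeps no read counts, so depth is unknown, and no counting interval or floor is given.

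Symbols with a mean of at least 1 TPM were compared on log2(TPM + 1) in a two-sided, unblocked fit by limma 3.58.1 (R 4.3.3, trended eBayes), with Benjamini-Hochberg adjustment over all genes and a threshold of 0.05. Log2 differences are on that scale. The fit was tested on simulated data. GC content and length came from 1 GENCODE 29 transcript per gene (10916 of 10966 tested genes), and were removed with splines (5 and 3 degrees of freedom) in 1 alternative. Others changed the pseudocount, filter or scaling, added a replicate block, or left out a library. One, GC and length correction with a pseudocount of 0.1, was chosen after seeing the data.

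The 9 genes and all lists were chosen with earlier results of these data known. Named beside the 9 genes are up to 4 called genes with the largest change per list and direction, list genes behind any count of at most 5, and the 4 genes nearest to F3 and to PLAUR. PROCR, PROS1, S100A10, ANXA2, SERPINI1, the genes not called, and F7, F2, F2RL2, F2RL3 and PRSS1 were chosen after their values were seen. The values of 1 plasminogen system gene are not reported here, and its call is part of that list's counts.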

Additional observations from a re-analysis of the deposited data

How the results depend on the processing

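Depth is unknown, and values under 1 TPM (PLAT and F2RL1 in siVCPIP1) carry rounding to 2 decimals. Of the 9 genes' log2 differences, 44 of 126 values under other settings moved by more than the spread between replicates and 1 turned, PLAUR at 0.55 after median-of-ratios scaling. The cause of the changes below was not tested, except that scaling and correction centre the libraries by construction.

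Over all tested genes, lower and higher calls numbered 4677 and 4641 with median-of-ratios scaling, 4454 and 4512 with quantile normalization, 3461 and 4062 after GC and length correction, 3385 and 3931 with that correction and a pseudocount of 0.1, and 3482 and 4037 with that correction and a replicate block. The labels do not say that same-numbered libraries shared a culture or day, so the numbers were not taken as pairs. Same-numbered libraries correlated in their deviations at 0.53, -0.27 and 0.16, and differently numbered ones at -0.54 to 0.40. With 3 libraries per group these values cannot settle whether the numbers are pairs. The replicate block alone gave 7085 lower and 1586 higher, and with it PRSS8 was no longer called (limma, adjusted p = 0.056).

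In the coagulation list, 7 and 6 genes were higher after the 2 scalings. In the plasminogen list, 5 and 4 were higher after the scalings, 4 after GC and length correction (also with a pseudocount of 0.1 or the replicate block), and 0 to 2 when a library was left out. In the PAR list, the lower and higher genes numbered 4 and 10 with median-of-ratios scaling and 4 and 7 with quantile normalization, and 5 were lower after GC and length correction with a pseudocount of 0.1 or the replicate block. Leaving out a library gave 1 to 3 higher. In the inhibitor list, lower and higher counts were 4 and 7 after median-of-ratios scaling, 2 and 7 after GC and length correction with or without the block, and 4 and 5 with that correction and a pseudocount of 0.1. Quantile normalization gave 6 higher, and leaving out a library 0 to 1.

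Among the pathway genes named in the text, those that changed sides were, after median-of-ratios scaling, GGCX (1.05), GNAI2 (1.17), KLK6 (1.24), SERPINA1 (1.23), SERPINH1 (1.03) and SPINT1 (0.98), and after quantile normalization GGCX (0.52), KLK6 (0.51), SERPINA1 (0.81) and SPINT1 (1.07). After GC and length correction, with or without the block, they were ANXA2 (0.40), GGCX (1.30), SERPINA1 (0.82), SERPINB1 (0.35), SERPINB7 (0.43), SERPINI1 (0.79) and VKORC1 (-0.15). With a pseudocount of 0.1 as well, they were ANXA2 (0.68), GGCX (1.84), SERPINA1 (0.99), SERPINB1 (0.78) and VKORC1 (-0.19). SERPINB7 (-0.95) and SERPINI1 (-1.20) were lower under that setting. Some named genes that were not called with TPM as deposited kept their sign but were called higher after median-of-ratios scaling. They were PROC (1.66), SERPINF2 (1.19), ENO1 (1.48), LRPAP1 (1.67), ITGA3 (1.39), ARRB2 (1.39) and SERPINA3 (1.30). LRPAP1 (1.40), ITGA3 (0.39) and SERPINA3 (1.06) were also called higher after GC and length correction. Over the whole lists (coagulation, plasminogen, PAR and inhibitor), 2, 0, 4 and 2 genes went from called lower to called higher with median-of-ratios scaling. Quantile normalization moved 1, 1, 2 and 2 genes in this way, and the GC and length correction moved 0, 1, 0 and 4.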
